A study of Mus musculus with 13 samples.

Results

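The comparison described here sets macrophages of the mouse optic nerve against microglia of the mouse brain, with the RNA sequencing count table of a series that also sampled the sciatic nerve. Its libraries were chosen by tissue and not by any measured value: the 4 optic nerve and the 5 brain libraries, 9 of the 13 libraries of the count table, with all genes. The optic nerve libraries were total RNA of macrophages from the optic nerve of C57BL/6J mice, and the brain libraries total RNA of microglia from the brain of the same strain. The labels give no age, sex, treatment, sorting gate, dissociation step or number of animals for either tissue, so the replicates may be technical, and p-values then measure only the spread between these libraries.

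Microglia are the resident macrophages of the brain parenchyma. They arise from yolk sac precursors, depend on signalling through the receptor Csf1r, and keep their identity through TGF-beta and transcription factors such as Sall1. Macrophages at the borders of the central nervous system, in the meninges and around vessels, share the macrophage programme but carry other surface receptors such as Mrc1, Lyve1 and Cd163. The optic nerve is a white matter tract of the central nervous system, made of the axons of retinal ganglion cells, oligodendrocytes, astrocytes and microglia, inside a meningeal sheath. Macrophages of any tissue can also switch on within minutes to hours a programme of early transcription factors, NF-kB targets, cytokines and chemokines, which is known both from inflammation and from the handling of cells during isolation.

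Levels are given as CPM, counts per 1000000 of a library size scaled by TMM (trimmed mean of M values, which corrects for differences in RNA composition). Values with a ± are the mean and SD of 4 optic nerve or 5 brain libraries, and where 2 such values are set against each other the optic nerve comes first. Fold changes are log2 values of optic nerve over brain with their standard error (SE) from edgeR's quasi-likelihood fit. A gene is said to have risen or fallen where its p, adjusted by the Benjamini-Hochberg method over all 12494 genes tested, was under 0.05. In bulk samples fewer cells of a type and less RNA per cell cannot be told apart.

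Total counts were 16.5 to 20.4 M per optic nerve library and 10.9 to 23.5 M per brain library. The 5 brain columns carry a prefix that the labels do not explain and were assigned to brain microglia by elimination. They are numbered here as the columns are. Brain columns 1 and 2 stood apart from columns 3 to 5: the second principal component (14.1% of the variance of log2 CPM) placed them at 101 and 29.1, and columns 3 to 5 between -50.8 and -44.4, while the first (57.0%) parted the tissues. Mitochondrially encoded genes took 2.62% of the counts of column 1, 0.611% of those of column 2 and 0.317% to 0.366% of those of columns 3 to 5, against 0.267% to 0.528% in optic nerve. The effect of leaving out both columns is given where it changes a result. Fewer genes reached 5 counts in optic nerve (12976 ± 267) than in brain (13513 ± 321; exact permutation p = 0.0397, two-sided, adjusted p = 0.159 over 4 technical measures). The smallest p that 4 against 5 libraries allow is 0.00794.

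Of the 12494 genes tested, 2150 (17.2%) were higher and 2347 (18.8%) lower in optic nerve macrophages. By at least 2-fold, 1361 (10.9%) were higher and 1710 (13.7%) lower. By at least 8-fold, 520 were higher and 342 lower. All optic nerve libraries lay above all brain libraries for 2184 genes (17.5%) and below them for 1941 (15.5%). Rises outnumbered falls among the 8-fold changes, and falls outnumbered rises among all calls. The order among all calls turned without optic nerve library 2 (1809 higher and 1795 lower) or 3 (1783 and 1759), without brain columns 1 and 2 (2972 and 2928) and with all 13 libraries in the fit (2590 and 2303). The shares of 17.2% and 18.8% are the background for each count of list members from this fit given below. Counts from an alternative fit have that fit's own background. Without brain columns 1 and 2 it was 2972 higher and 2928 lower of 12508 genes tested. Without column 1 alone it was 2520 and 2633 of 12177. The median log2 fold change over all genes tested was -0.12.

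**Figure D1:**
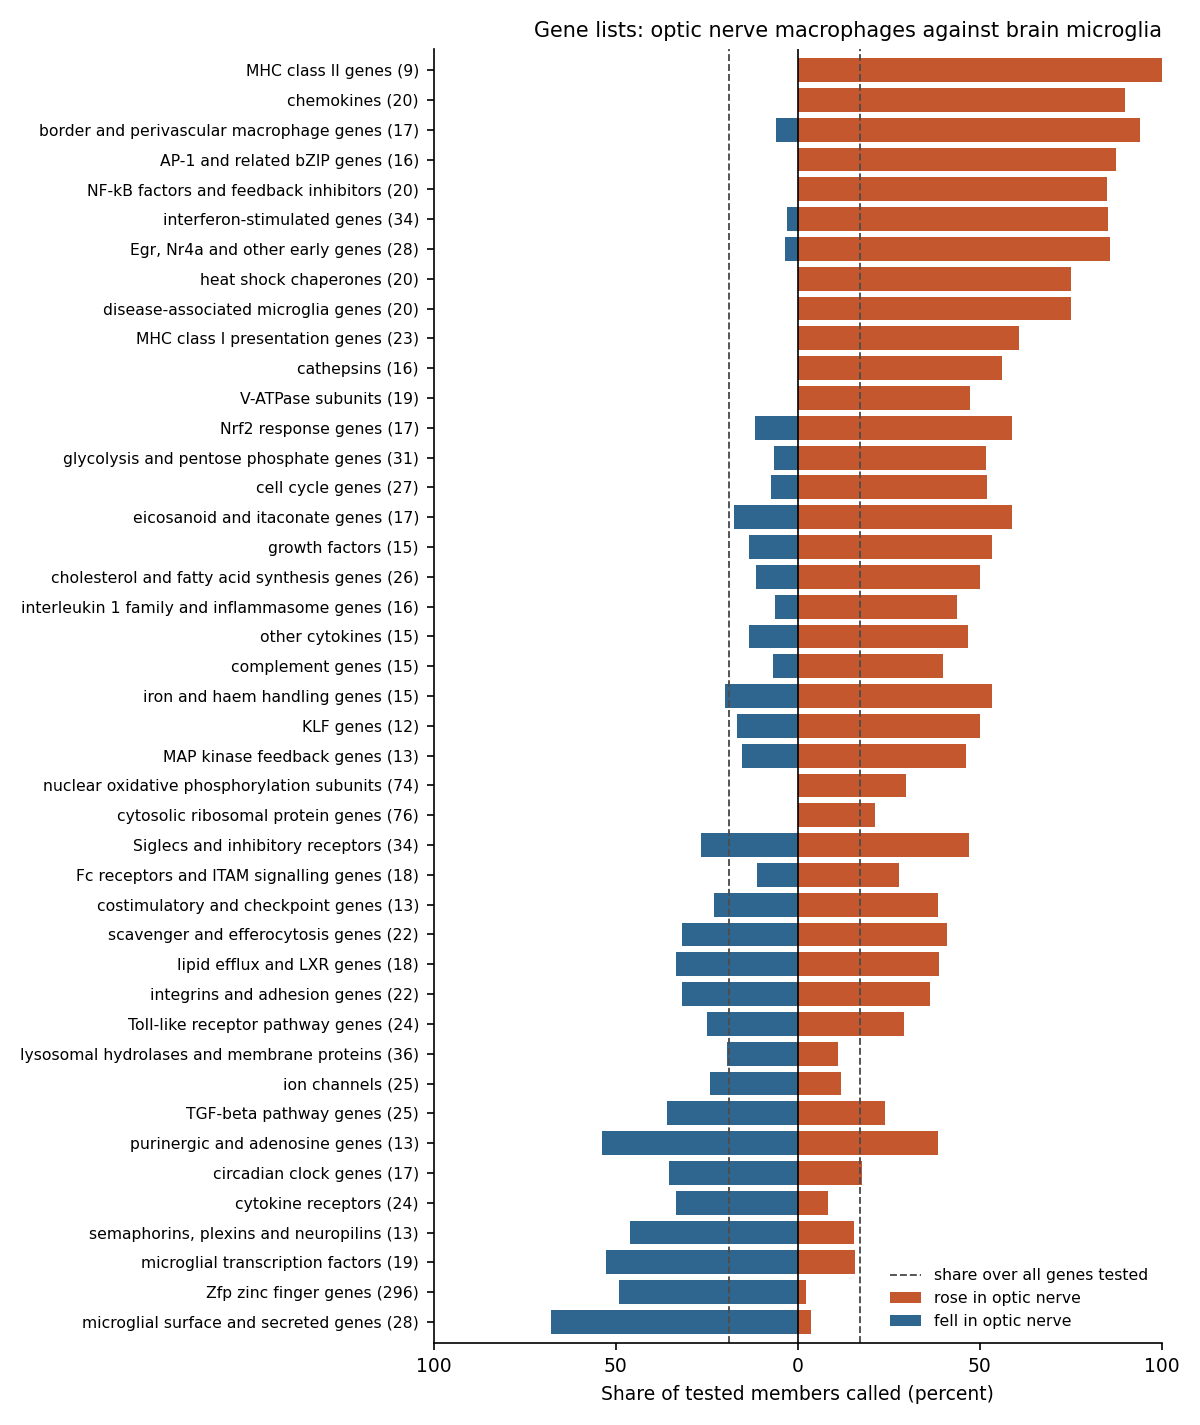
Share of the tested members of each gene list that rose (right of 0) or fell (left of 0) in optic nerve macrophages relative to brain microglia, in percent, with the number of tested members after each name. The dashed lines mark the shares over all genes tested, 17.2% higher and 18.8% lower; chemokine, early gene, NF-kB and border macrophage lists lie far to the right, and the Zfp and microglial lists to the left.

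Genes that mark microglia were present in optic nerve macrophages, most of them at a lower level than in the brain. Of 28 genes for microglial surface and secreted proteins 19 fell, 1 rose and 8 were not called, where 18.8% of all genes fell. The median of the list was -1.21. In this direction 17 of its members did not overlap between the tissues, where the share over all genes was 15.5%. Fcrls, an Fc receptor-like protein, measured 1084, 1326, 1228 and 1073 CPM in optic nerve and 3807, 4790.4, 5731, 5505 and 5393 CPM in the brain columns. The groups were far apart, and Fcrls had the largest fall of the list (log2 fold change -2.10, SE 0.16, edgeR adjusted p = 2.50e-06). Tgfbr1, the type I receptor through which TGF-beta acts on microglia, measured 649.9, 680.2, 619 and 704 CPM in optic nerve and 1415, 1497, 2789, 3002 and 2902 CPM in the brain columns. Its groups did not overlap, and it fell (log2 fold change -1.81, SE 0.25, edgeR adjusted p = 2.44e-04). Slc2a5, a fructose transporter (328 ± 41.1 against 1245 ± 286 CPM), Gpr34, a lysophosphatidylserine receptor (1382 ± 109 against 4158 ± 1207 CPM), and Adgrg1, an adhesion receptor (393 ± 86.4 against 1039 ± 282 CPM), also fell.

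P2ry12, the ADP receptor that guides microglial processes, showed the split within the brain. It measured 2697, 2482, 2729 and 2589 CPM in optic nerve and 5258, 6337, 11097, 11117 and 11279 CPM in the brain columns. Brain columns 1 and 2 lay between the optic nerve and the other brain columns, and no groups overlapped. The fall (log2 fold change -1.78, SE 0.24, edgeR adjusted p = 2.23e-04) was somewhat larger without these columns (log2 fold change -2.10, SE 0.07, edgeR adjusted p = 4.39e-08). Csf1r, the receptor for colony stimulating factor 1 and interleukin 34, was not called with all 9 libraries (log2 fold change -0.65, SE 0.30, edgeR adjusted p = 0.106). It measured 6784, 6833, 7615 and 8811 CPM in optic nerve and 5222, 8194, 14785, 15656 and 15137 CPM in the brain columns. Brain column 1 lay below every optic nerve library, column 2 among them and columns 3 to 5 far above. Without columns 1 and 2 it fell (log2 fold change -1.02, SE 0.10, edgeR adjusted p = 2.56e-05), as it did without column 1 alone (edgeR adjusted p = 0.00497). Tyrobp, the adaptor of Trem2, went the other way and rose without columns 1 and 2 (log2 fold change 0.98, SE 0.12, edgeR adjusted p = 1.57e-04, against log2 fold change 0.54, SE 0.25, edgeR adjusted p = 0.110) or without column 1 alone (edgeR adjusted p = 0.00672).

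Some microglial genes stood at about the same level in both tissues. Sparc, a matrix protein, measured 5812 ± 856 against 6182 ± 765 CPM, Trem2, a lipid-sensing receptor, 1671 ± 233 against 1859.9 ± 426 CPM, and Cst3, the protease inhibitor cystatin C, 48019 ± 7913 against 40088 ± 10020.3 CPM. None of these was called, but Cst3 rose without brain columns 1 and 2 (log2 fold change 0.54, SE 0.12, edgeR adjusted p = 0.00446). Leaving out these columns brought the list to 5 rises and 21 falls. With all 9 libraries 1 gene of the list rose: Gpr84, a receptor for medium-chain fatty acids. It measured 2585, 2603, 3669.8 and 2405 CPM in optic nerve and 185, 178, 251, 220.3 and 249.99 CPM in the brain columns. The lowest optic nerve library held several times the level of the highest brain library (log2 fold change 3.70, SE 0.19, edgeR adjusted p = 8.62e-08).

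**Figure D2:**
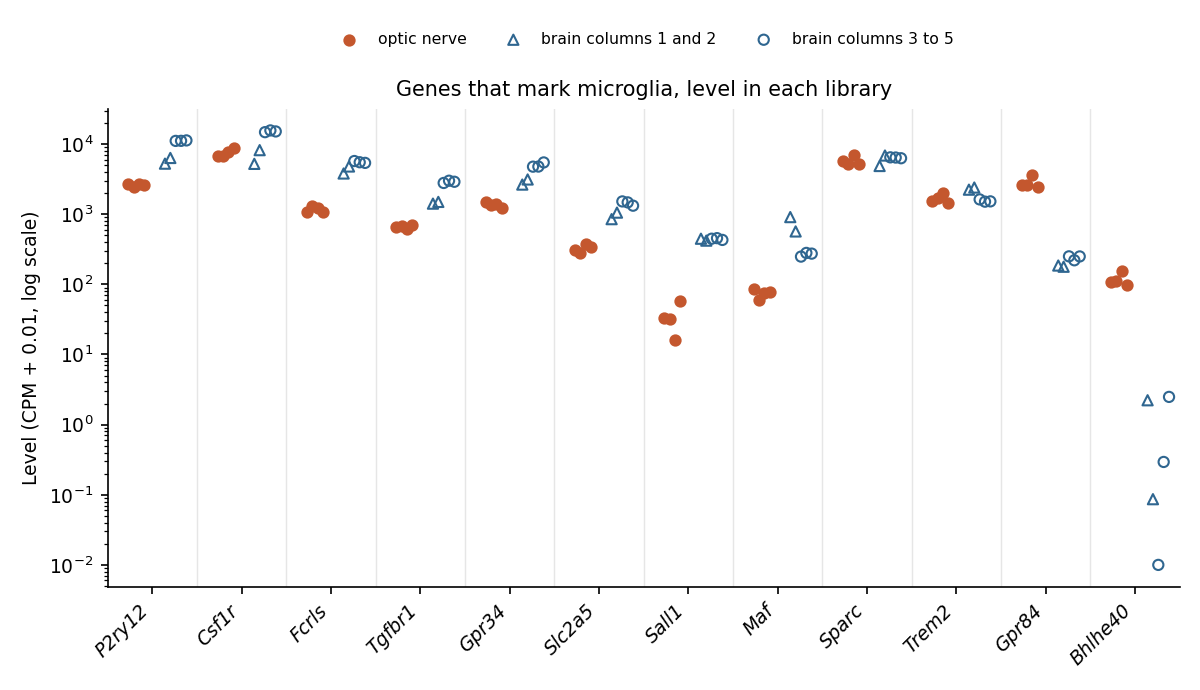
Level in each library (CPM plus 0.01, log scale) of 12 genes that mark microglia, with optic nerve libraries as filled circles, brain columns 3 to 5 as open circles and brain columns 1 and 2 as open triangles. Fcrls, Tgfbr1, Sall1 and Maf are lower in every optic nerve library than in every brain library, Gpr84 and Bhlhe40 are higher, and Trem2 and Sparc overlap.

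The transcription factors known from microglia divided. Of 19 tested, 10 fell and 3 rose (median -0.70). Sall1, a zinc finger repressor required for microglial identity, measured 32.8, 32.2, 15.95 and 57.01 CPM in optic nerve and 447, 419.9, 447, 456 and 429.97 CPM in the brain columns. The brain libraries were even, and the optic nerve libraries varied more and lay far below them (log2 fold change -3.67, SE 0.31, edgeR adjusted p = 5.46e-06). Maf, a bZIP factor of resident macrophages, measured 84.9, 59.5, 74.7 and 77.7 CPM in optic nerve and 909.6, 568, 249, 281 and 274 CPM in the brain columns. It fell (log2 fold change -2.62, SE 0.39, edgeR adjusted p = 4.40e-04), and the brain mean rested largely on columns 1 and 2. Without them the fall was smaller (log2 fold change -1.86, SE 0.13, edgeR adjusted p = 3.90e-06). Hhex (67.5 ± 22.3 against 244 ± 36.4 CPM), Sall3 (31.9 ± 10.2 against 105 ± 42.7 CPM), Etv5 (45.02 ± 15.3 against 111 ± 32.6 CPM), Mef2a (242 ± 31.8 against 453 ± 60.5 CPM) and Mef2c (507 ± 25.2 against 792 ± 164 CPM) fell as well.

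Spi1 (PU.1) and Irf8, on which the development of microglia depends, were not called, with 454 ± 52.7 against 372 ± 51.3 CPM and 845 ± 143 against 751 ± 61.1 CPM. The paired repressors Bhlhe40 and Bhlhe41 moved in opposite directions. Bhlhe40 measured 108, 113, 153 and 98.5 CPM in optic nerve and 2.22, 0.0765, 0, 0.284 and 2.47 CPM in the brain columns. It was nearly silent in every brain library and rose (log2 fold change 6.96, SE 0.88, edgeR adjusted p = 1.25e-04). Bhlhe41 fell (19.4 ± 5.08 against 55.7 ± 8.51 CPM; log2 fold change -1.52, SE 0.22, edgeR adjusted p = 2.92e-04). Cebpb, a bZIP factor of activated macrophages, rose (577 ± 83.1 against 70.1 ± 20.9 CPM; log2 fold change 3.04, SE 0.21, edgeR adjusted p = 1.15e-06).

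Genes of the TGF-beta pathway moved both ways. Of 25 pathway genes tested, 9 fell and 6 rose (median -0.11). Smad3, which carries the signal from the receptor, measured 28.6, 25.4, 19.4 and 26.7 CPM in optic nerve and 31.1, 55.99, 84.3, 76.8 and 77.3 CPM in the brain columns. The tissues did not overlap (log2 fold change -1.38, SE 0.28, edgeR adjusted p = 0.00304). Smad5, which acts in BMP signalling (18.5 ± 9.88 against 54.4 ± 3.04 CPM), and Itgav, an integrin that activates latent TGF-beta (79.4 ± 15.2 against 219 ± 56.3 CPM), fell too. Among the rises were Tgif1, a repressor that binds Smad proteins (550.1 ± 76.2 against 50.98 ± 13.8 CPM; log2 fold change 3.43, SE 0.22, edgeR adjusted p = 6.67e-07) and Bambi, a decoy receptor (36.4 ± 10.5 against 2.77 ± 2.82 CPM). The ligand Tgfb1 (176 ± 17.2 against 170.1 ± 22.1 CPM) and the common mediator Smad4 (81.9 ± 17.6 against 90.7 ± 17.7 CPM) were not called.

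Genes of border and perivascular macrophages were higher in optic nerve, at levels below those of most microglial genes. Of 17 tested, 16 rose and 1 fell, with a median of 5.96 (5.96 with genes at 0 in brain set to their lower bound, which changed the median of no function list in the 2nd decimal). F13a1, a transglutaminase, measured 143, 113, 154 and 292 CPM in optic nerve and 0, 7.92, 0, 0 and 0.540 CPM in the brain columns. The 4th library held the most and the spread between optic nerve libraries was wide (log2 fold change 6.60, SE 1.24, edgeR adjusted p = 0.00183). The 4th library had the highest level for 12 of the 16 genes that rose, and the first for the other 4. The summed level of the list was 527 to 1081 CPM in optic nerve and 159 to 301 CPM in brain. That of the microglial surface and secreted genes was 97962 to 122997 CPM in optic nerve. Much of this microglial sum was Cst3, which was not called with all 9 libraries. Fcrls alone exceeded the border sum in optic nerve libraries 1 to 3 and lay just under it in the 4th. Stab1, a scavenger receptor, fell (64.6 ± 21.3 against 191 ± 66.4 CPM), with its highest levels in brain columns 1 and 2. It made up most of the summed level of the border list in brain, which had a mean of 216 CPM. The ranges of the sums therefore understate the difference in the genes that rose. The part of border macrophages in the results was not tested.

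Timd4, a phosphatidylserine receptor of long-lived resident macrophages, was among the 10 largest rises of genes with at least 20 CPM in the higher tissue and no overlap between the tissues. It measured 30.1, 26.8, 28.6 and 43.6 CPM in optic nerve and 0, 0, 0, 0 and 0 CPM in the brain columns. It had no count in any brain library (at least 1122-fold higher, edgeR adjusted p = 2.72e-06). Retnla, a cysteine-rich secreted protein known from alternative activation, measured 43.8, 30.1, 24.8 and 14.2 CPM in optic nerve and 0, 0, 0, 0 and 0 CPM in the brain columns (at least 1011-fold higher, edgeR adjusted p = 1.62e-05). Of the TAM receptors, which recognise the phosphatidylserine bridging proteins Gas6 and Pros1, Mertk fell. It measured 171, 187, 179 and 186 CPM in optic nerve and 571, 590.03, 804, 874 and 794 CPM in the brain columns. The groups did not overlap (log2 fold change -2.01, SE 0.17, edgeR adjusted p = 4.44e-06). Gas6 fell as well (93.7 ± 11.05 against 216 ± 45.4 CPM). Of 22 scavenger and efferocytosis genes 9 rose and 7 fell, among the rises Olr1, a receptor for oxidised lipoprotein (53.8 ± 23.9 against 1.39 ± 0.898 CPM).

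Early response genes, many of them for transcription factors, rose in nearly all cases. Of 16 AP-1 and related bZIP genes 14 rose and none fell (median 3.81), and of 28 Egr, Nr4a and other early genes 24 rose and 1 fell (median 5.24). Fos measured 1352, 1355, 1209.7 and 2180.4 CPM in optic nerve and 0.328, 3.10, 0.905, 1.46 and 0.765 CPM in the brain columns. The brain libraries were near 0 and all optic nerve libraries far above them (log2 fold change 10.10, SE 0.55, edgeR adjusted p = 1.69e-07). Fosb was read once in all brain libraries together (127 ± 31.9 CPM in optic nerve, 13415-fold higher, 95% counting interval 2407 to 529909). Nr4a3 (33.4 ± 7.80 CPM, 1177-fold higher, 95% counting interval 402 to 5711), Gadd45b (805 ± 209 against 0.681 ± 0.469 CPM) and Maff (177 ± 47.5 against 0.351 ± 0.324 CPM) rose as well.

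Within families of early genes the direction was not shared by all members. The 3 zinc finger proteins that degrade AU-rich transcripts differed: Zfp36 (tristetraprolin) rose (1447 ± 263 against 92.3 ± 16.3 CPM; log2 fold change 3.97, SE 0.19, edgeR adjusted p = 7.13e-08), Zfp36l1 was not called (75.5 ± 5.31 against 74.9 ± 45.4 CPM) except without brain columns 1 and 2, where it rose (log2 fold change 0.79, SE 0.13, edgeR adjusted p = 8.98e-04), and Zfp36l2 fell. Zfp36l2 measured 36.9, 25.3, 24.95 and 49.8 CPM in optic nerve and 79.8, 143, 157, 166 and 131 CPM in the brain columns. Its groups did not overlap (log2 fold change -1.99, SE 0.28, edgeR adjusted p = 2.50e-04). Of 12 KLF genes 6 rose and 2 fell, with 1 fall when any 1 of brain columns 2 to 5 was left out. Klf4 (43.4 ± 16.7 against 0.801 ± 0.668 CPM), Klf2 (311 ± 105 against 7.43 ± 6.18 CPM) and Klf10 (532 ± 59.9 against 21.9 ± 8.34 CPM) rose, and Klf3, a repressor, fell (77.6 ± 8.85 against 360.4 ± 31.1 CPM; log2 fold change -2.21, SE 0.14, edgeR adjusted p = 6.46e-07).

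The phosphatases that switch off MAP kinases also split. Dusp1, which acts in the nucleus on p38 and JNK, measured 2392, 2629.8, 2864 and 2324 CPM in optic nerve and 13.1, 0.574, 3.02, 5.71 and 4.005 CPM in the brain columns. It rose with no overlap (log2 fold change 8.96, SE 0.72, edgeR adjusted p = 3.37e-06), and so did Dusp2 (311 ± 55.1 against 0.828 ± 0.487 CPM) and Dusp5 (178 ± 41.996 against 0.654 ± 0.266 CPM). Dusp6, the cytoplasmic phosphatase of ERK, measured 107, 115, 67.2 and 210.2 CPM in optic nerve and 514, 725, 1047, 1129.8 and 1158 CPM in the brain columns. It fell in every optic nerve library (log2 fold change -2.87, SE 0.36, edgeR adjusted p = 1.08e-04), as did its relative Dusp7 (48.7 ± 7.03 against 204 ± 45.3 CPM). In all, 6 of 13 tested MAP kinase feedback genes rose and 2 fell, with 8 and 4 without brain columns 1 and 2 and 4 falls without column 1 alone. Of 20 heat shock chaperones 15 rose and none fell (median 1.43). Hspa1a (104 ± 29.4 against 0.979 ± 0.815 CPM) and Hspa1b (63.1 ± 15.9 against 2.10 ± 1.08 CPM), near-identical copies whose reads cannot be assigned with certainty, and Dnajb1 (1064 ± 79.4 against 119 ± 18.1 CPM) rose, while Hsp90b1, the chaperone of the endoplasmic reticulum, stood at 1188 ± 94.4 against 1212 ± 126 CPM.

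Factors of the NF-kB pathway and their feedback inhibitors rose. Of 20 NF-kB factors and feedback inhibitors 17 rose and none fell (median 2.89). Nfkbiz, a nuclear co-activator of secondary response genes, measured 1085, 1250.0, 1047 and 1564 CPM in optic nerve and 6.81, 6.23, 5.73, 3.77 and 5.58 CPM in the brain columns. The tissues were more than 100-fold apart in every pair of libraries (log2 fold change 7.78, SE 0.24, edgeR adjusted p = 2.63e-09). Tnip3, an inhibitor that binds A20, had no count in brain (24.6 ± 2.90 CPM, at least 866-fold higher), and Traf1, an adaptor of TNF receptors, rose (18.9 ± 3.09 against 0.0849 ± 0.141 CPM). Nfkb1, Cyld and N4bp1 were the members not called, with 218 ± 28.9 against 195 ± 14.6 CPM, 60.4 ± 8.23 against 59.9 ± 18.6 CPM and 56.8 ± 8.86 against 55.03 ± 8.63 CPM. Optic nerve library 3 had the highest level of 11 of the 17 genes that rose.

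Most chemokines rose, and cytokines in part. Of 20 chemokines 18 rose and none fell (median 5.75). Cxcl2, which attracts neutrophils, measured 442, 311, 411 and 274 CPM in optic nerve and 0, 0, 0, 0 and 0 CPM in the brain columns. It had no count in any brain library and was high in all optic nerve libraries (at least 12696-fold higher, edgeR adjusted p = 1.99e-07). Ccl4 measured 8244, 9412, 9507 and 6028 CPM in optic nerve and 33.9, 85.4, 17.5, 13.05 and 22.5 CPM in the brain columns. It was among the 8 largest rises in absolute level (log2 fold change 7.91, SE 0.59, edgeR adjusted p = 1.87e-06). Of 16 genes of the interleukin 1 family and inflammasomes 7 rose and 1 fell. Il1rn, the secreted antagonist of the interleukin 1 receptor, measured 580.3, 659, 851 and 299.6 CPM in optic nerve and 0.410, 0, 1.86, 0.608 and 1.03 CPM in the brain columns (log2 fold change 9.57, SE 0.72, edgeR adjusted p = 1.85e-06). The cytokine Il1b measured 1817, 2517, 2307 and 1678 CPM in optic nerve and 2.38, 1.95, 2.41, 4.74 and 6.57 CPM in the brain columns (log2 fold change 9.16, SE 0.43, edgeR adjusted p = 6.70e-08). Agonist and antagonist were both near 0 in brain and high in optic nerve. Pycard, the adaptor of inflammasomes, fell (136 ± 9.71 against 216 ± 57.1 CPM; edgeR adjusted p = 0.0191), but was not called without optic nerve library 2 (edgeR adjusted p = 0.0644) or 4 (edgeR adjusted p = 0.0616). Il18 was not called (43.7 ± 12.3 against 44.5 ± 9.31 CPM).

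Not every cytokine rose. Of 15 other cytokines 7 rose and 2 fell, with 1 fall when optic nerve library 1 or 3 or brain column 2 or 4 was left out. Tnf (1438 ± 264 against 1.62 ± 0.749 CPM), Osm (388 ± 39.4 against 13.6 ± 5.05 CPM) and Csf1 (151 ± 18.8 against 15.9 ± 5.60 CPM) rose. Il16, a cytokine made from a PDZ protein precursor, measured 23.8, 29.9, 21.2 and 33.6 CPM in optic nerve and 150.2, 203, 278, 278 and 252 CPM in the brain columns. It fell in all optic nerve libraries (log2 fold change -3.10, SE 0.24, edgeR adjusted p = 2.31e-06). Il6 was not called (14.2 ± 5.37 against 12.3 ± 6.73 CPM). Of 24 cytokine receptors 8 fell and 2 rose. The number of falls was 4 without optic nerve library 2, 5 without library 3, and 14 without brain columns 1 and 2. Ifngr1, the ligand-binding chain of the interferon gamma receptor, measured 511, 441, 434 and 485 CPM in optic nerve and 1189, 1288, 1986, 1871 and 2015 CPM in the brain columns. Its groups did not overlap (log2 fold change -1.84, SE 0.19, edgeR adjusted p = 3.22e-05). Il7r (9.19 ± 4.47 against 40.2 ± 12.8 CPM) and Tnfrsf17 (7.49 ± 0.375 against 40.7 ± 15.8 CPM) fell, and Csf2ra (94.2 ± 8.12 against 27.6 ± 2.76 CPM) and Il4ra (349 ± 62.4 against 189.7 ± 45.8 CPM) rose. The chemokine receptor Ccr1 rose (255 ± 42.9 against 39.1 ± 6.16 CPM; log2 fold change 2.70, SE 0.18, edgeR adjusted p = 6.46e-07).

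**Figure D3:**
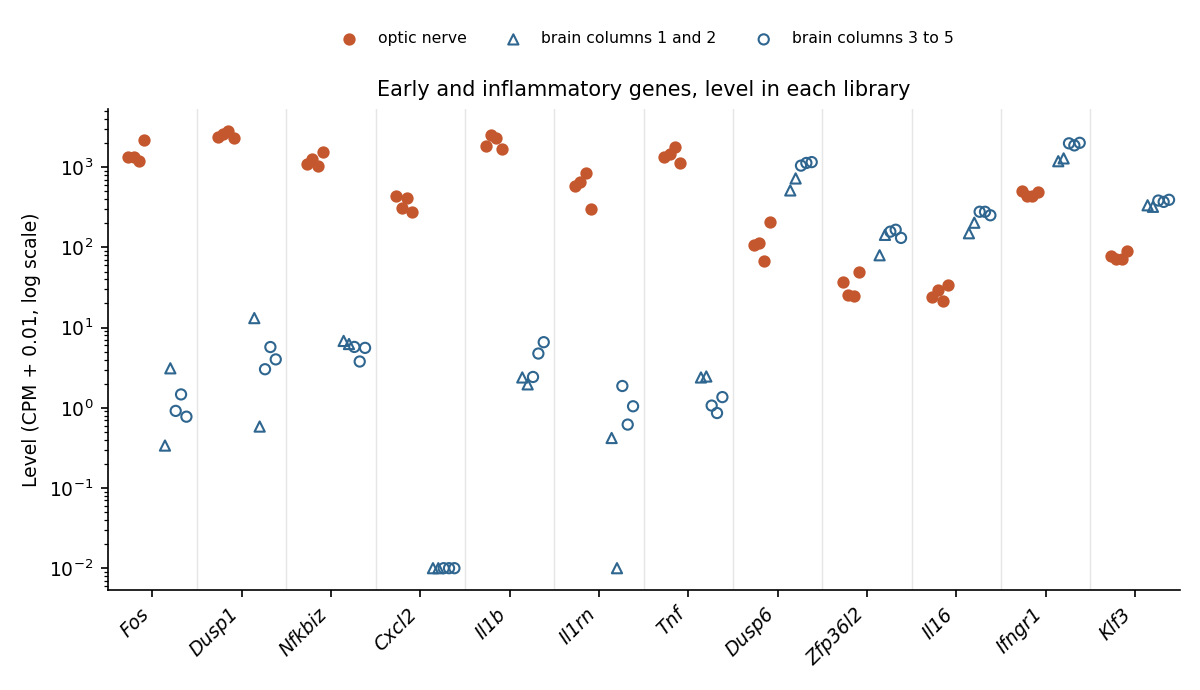
Level in each library (CPM plus 0.01, log scale) of 12 early and inflammatory genes, with optic nerve libraries as filled circles, brain columns 3 to 5 as open circles and brain columns 1 and 2 as open triangles. Fos, Dusp1, Nfkbiz, Cxcl2, Il1b, Il1rn and Tnf are high in all optic nerve libraries, while Dusp6, Zfp36l2, Il16, Ifngr1 and Klf3 are lower there than in every brain library.

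The promoters of these genes were searched for the motifs of the factors named, in RefSeq sequences of GRCm38.p6 that run from 250 bases before to 50 bases after the transcription start (the first listed start of each gene). The kappaB motif, on either strand, was found in 9 of 18 promoters of NF-kB factors and feedback inhibitors, 5 of 16 of chemokines, 1 of 18 of interleukin 1 and inflammasome genes and 3 of 16 of other cytokines. It was found in 4.35% of all 27025 promoters and in 5.00% of those of genes tested. Shown are the stretches before the start of Cxcl2 and Nfkbia, the inhibitor IkB-alpha, 5′ to 3′ on the gene's strand with the kappaB match in capitals.
Cxcl2, chr5:90903787-90903827, + strand: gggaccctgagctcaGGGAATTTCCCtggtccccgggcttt
Nfkbia, chr12:55492652-55492691, - strand: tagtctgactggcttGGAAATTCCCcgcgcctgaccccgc
The match begins 97 bases before the start in Cxcl2 and 29 bases before it in Nfkbia. Among the early genes, the cyclic AMP response element (TGACGTCA) was found in 0 of 14 promoters of AP-1 and related genes and 2 of 22 of the other early genes, against 1.88% of all promoters and 3.45% of those of genes tested. The AP-1 site (TGANTCA, which does not overlap the former) was found in 0 of 14 and 1 of 22, against 7.93% of all promoters and 4.68% of those of genes tested. A match is a description of the letters and not of binding.

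Interferon-stimulated genes rose together. Of 34 tested, 29 rose and 1 fell (median 2.56). Gbp2, a guanylate-binding protein, measured 209, 149.8, 279 and 128 CPM in optic nerve and 9.60, 1.95, 8.14, 15.4 and 11.2 CPM in the brain columns. The lowest optic nerve library was above every brain library (log2 fold change 4.37, SE 0.48, edgeR adjusted p = 4.36e-05). Ifi204, a DNA sensor of a family with near copies (148 ± 20.6 against 7.08 ± 3.27 CPM), and Ifitm2, a membrane protein that restricts viral entry (15.9 ± 2.60 against 0.625 ± 0.590 CPM), also rose. Ddx58, the RNA sensor RIG-I, fell (22.5 ± 1.43 against 43.3 ± 12.2 CPM; log2 fold change -0.95, SE 0.24, edgeR adjusted p = 0.0109). Stat2 and Irf9, members of the interferon-responsive complex, were not called, with 38.2 ± 8.35 against 24.2 ± 7.94 CPM and 121 ± 5.14 against 93.7 ± 29.3 CPM. Without brain columns 1 and 2 Stat2 passed narrowly (log2 fold change 0.57, SE 0.20, edgeR adjusted p = 0.0411). The first optic nerve library had the highest level of 21 of the 29 genes that rose and the third of 7. The receptor chains Ifnar1 (119 ± 13.2 against 109.7 ± 10.8 CPM) and Ifnar2 (278 ± 21.9 against 291 ± 41.998 CPM) were not called.

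The core of the interferon-stimulated response element, GAAA repeated after 2 bases (GAAANNGAAA) on either strand, was found in 18 of 28 promoters of the interferon list, against 3.49% of all promoters and 3.23% of those of genes tested. Shown are Ifit3, with 2 separate matches on the reverse strand, and Isg15, in which overlapping matches form 1 stretch.
Ifit3, chr19:34583358-34583431, + strand: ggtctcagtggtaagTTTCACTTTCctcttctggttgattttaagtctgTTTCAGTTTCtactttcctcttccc
Isg15, chr4:156200860-156200911, - strand: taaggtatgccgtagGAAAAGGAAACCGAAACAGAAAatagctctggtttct
The stretch begins 78 bases before the start in Isg15, and those of Ifit3 begin 156 and 122 bases before it. Ifit3 measured 73.98, 54.9, 50.6 and 33.4 CPM in optic nerve and 10.3, 9.75, 11.1, 10.9 and 15.6 CPM in the brain columns (log2 fold change 2.21, SE 0.25, edgeR adjusted p = 5.79e-05). Isg15, a ubiquitin-like modifier, measured 85.2, 60.97, 62.1 and 38.4 CPM in optic nerve and 10.7, 8.64, 5.23, 4.38 and 6.70 CPM in the brain columns (log2 fold change 3.12, SE 0.31, edgeR adjusted p = 2.16e-05). Both rose without overlap of the tissues, with the highest level in the first optic nerve library. These 2 genes and Nfkbia (1972 ± 446 against 153 ± 30.8 CPM) were chosen for display after their values were seen.

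Antigen presentation genes rose in both classes. All 9 tested MHC class II genes rose (median 1.22). H2-Aa measured 165, 129.8, 152 and 238 CPM in optic nerve and 0.0821, 1.57, 1.71, 0 and 6.70 CPM in the brain columns. The 4th optic nerve library held the most, and the tissues did not overlap (log2 fold change 6.37, SE 0.94, edgeR adjusted p = 3.71e-04). The invariant chain Cd74 rose as well (958 ± 114 against 46.004 ± 9.04 CPM). Of 23 class I genes 14 rose and none fell (median 0.81), with 3 falls without brain columns 1 and 2 and 2 without column 1 alone. H2-D1 measured 3520.3, 3715, 4168 and 3709.6 CPM in optic nerve and 401, 641, 719, 592 and 713 CPM in the brain columns (log2 fold change 2.62, SE 0.18, edgeR adjusted p = 1.01e-06), and H2-Q6 (183 ± 24.5 against 6.45 ± 3.01 CPM) and H2-Q7 (51.6 ± 7.29 against 2.65 ± 1.19 CPM) rose from low levels. Class I genes have near copies, between which reads may be misplaced. The peptide transporter chain Tap2 was not called (118 ± 14.9 against 116 ± 44.99 CPM). Of 13 costimulatory and checkpoint genes 5 rose and 3 fell (5 without brain columns 1 and 2). Cd83 measured 11639.5, 12588, 16094 and 8769 CPM in optic nerve and 219.9, 228, 296, 286 and 277 CPM in the brain columns (log2 fold change 5.55, SE 0.21, edgeR adjusted p = 1.95e-08), and Cd40 rose (53.98 ± 22.8 against 0.170 ± 0.223 CPM). Cd86 was not called (379.6 ± 52.3 against 488 ± 138 CPM) except without brain columns 1 and 2, where it fell (log2 fold change -0.64, SE 0.12, edgeR adjusted p = 0.00166), and Vsir (VISTA) fell (1035 ± 155 against 2751 ± 335 CPM).

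Of 24 Toll-like receptor pathway genes 7 rose (29.2%) and 6 fell (25%), where 17.2% of all genes rose and 18.8% fell, so that single members are given here and the counts are not read as a result about the list. Tlr2, the receptor for bacterial lipoproteins, measured 2021, 2540.3, 2504 and 2129 CPM in optic nerve and 172, 271, 359, 340.2 and 394 CPM in the brain columns. It rose without overlap (log2 fold change 2.90, SE 0.23, edgeR adjusted p = 2.66e-06), with Cd14, a co-receptor of Tlr2 and Tlr4 (5023 ± 814 against 677 ± 107 CPM), and the adaptor Myd88 (618 ± 128 against 122 ± 27.9 CPM). Tlr4, the receptor for lipopolysaccharide, measured 15.1, 67.1, 37.5 and 60.99 CPM in optic nerve and 53.7, 116, 231, 279 and 208 CPM in the brain columns. It fell (log2 fold change -1.98, SE 0.51, edgeR adjusted p = 0.0109), and so did Tlr5 (3.02 ± 0.411 against 25.4 ± 5.24 CPM) and Tlr12 (22.5 ± 3.51 against 70.1 ± 15.3 CPM). Unc93b1, the chaperone of the endosomal receptors, stood at 1481 ± 176 against 1463 ± 405 CPM and was the most alike of the genes above 1000 CPM. The complement list had 6 of 15 genes higher and 1 lower, with 2 lower without brain columns 1 and 2. C4b (81.5 ± 40.8 against 1.72 ± 1.43 CPM) and C3 (15.9 ± 8.76 against 1.93 ± 1.26 CPM) rose, C1qc was alike (8123 ± 1311 against 7593 ± 926 CPM) and C1qb rose slightly (15885 ± 2947 against 10282 ± 1736 CPM; log2 fold change 0.63, SE 0.17, edgeR adjusted p = 0.0139). C5ar2, the second receptor for C5a, fell (22.6 ± 3.77 against 56.6 ± 9.87 CPM).

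Inhibitory and activating receptors changed within families. Of 34 Siglecs and inhibitory receptors 16 rose and 9 fell. Clec12a (28.8 ± 6.60 against 0.117 ± 0.262 CPM), Cd300ld (16.7 ± 2.53 against 0.413 ± 0.406 CPM) and Lilrb4a (126 ± 31.6 against 3.57 ± 2.15 CPM) rose, and Sirpa, the receptor for the signal protein Cd47, fell. Sirpa measured 984, 927, 1033 and 1312 CPM in optic nerve and 1635, 2437, 4019.7, 4023 and 3895 CPM in the brain columns. The tissues did not overlap (log2 fold change -1.59, SE 0.27, edgeR adjusted p = 9.27e-04). Cd200r1, the receptor of another inhibitory ligand, fell as well (6.86 ± 3.16 against 26.4 ± 6.92 CPM). Of 18 Fc receptor and ITAM signalling genes 5 rose and 2 fell (5 without brain columns 1 and 2, or without column 1 alone), and the rises included the kinase Fgr (37.6 ± 9.83 against 5.77 ± 2.33 CPM). Btk, a kinase downstream of such receptors, was not called (90.9 ± 14.5 against 93.5 ± 29.8 CPM), and the falls were Fcrls and its relative Fcrl1 (17.9 ± 1.16 against 78.9 ± 10.96 CPM).

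Lipid genes moved both ways. Of 18 genes of lipid efflux and LXR regulation 7 rose and 6 fell. Abca1, the transporter that loads cholesterol onto apolipoproteins, measured 37.9, 58.7, 40.004 and 74.8 CPM in optic nerve and 249.5, 276, 265, 278 and 289.9 CPM in the brain columns. It fell in every optic nerve library (log2 fold change -2.36, SE 0.22, edgeR adjusted p = 9.09e-06), as did Abcg1 (23.4 ± 8.01 against 122 ± 26.9 CPM) and Mylip, a ubiquitin ligase induced by LXR (108 ± 10.8 against 328 ± 83.7 CPM). Apoe, which accepts that cholesterol and is under the same nuclear receptors, measured 9113, 10019.5, 11860.5 and 9629 CPM in optic nerve and 297, 516, 254, 257 and 328 CPM in the brain columns. It rose (log2 fold change 4.94, SE 0.24, edgeR adjusted p = 7.56e-08), and so did Apoc1 (14.4 ± 3.63 against 0.00810 ± 0.0181 CPM), Pltp, a phospholipid transfer protein (68.2 ± 31.2 against 1.06 ± 0.723 CPM), and Ch25h, which makes the oxysterol 25-hydroxycholesterol (64.5 ± 29.1 against 1.33 ± 1.01 CPM).

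Genes of cholesterol uptake and synthesis and of fatty acid synthesis, most of them known SREBP targets, rose in 13 of 26 cases and fell in 3 (median 1.09). Insig1, which retains SREBP in the endoplasmic reticulum, measured 90.5, 128, 116 and 132 CPM in optic nerve and 4.43, 7.99, 7.54, 7.01 and 3.46 CPM in the brain columns. It rose without overlap of the tissues (log2 fold change 4.25, SE 0.28, edgeR adjusted p = 6.46e-07), while its relative Insig2 fell (41.3 ± 12.6 against 81.4 ± 18.7 CPM), and Stard4, a sterol carrier, rose (26.2 ± 6.62 against 1.20 ± 0.764 CPM). The desaturase Scd2 fell (27.9 ± 5.13 against 102 ± 41.7 CPM; log2 fold change -1.88, SE 0.32, edgeR adjusted p = 0.00100), and Fasn, the fatty acid synthase, was not called (10.2 ± 5.83 against 15.1 ± 7.80 CPM).

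**Figure D4:**
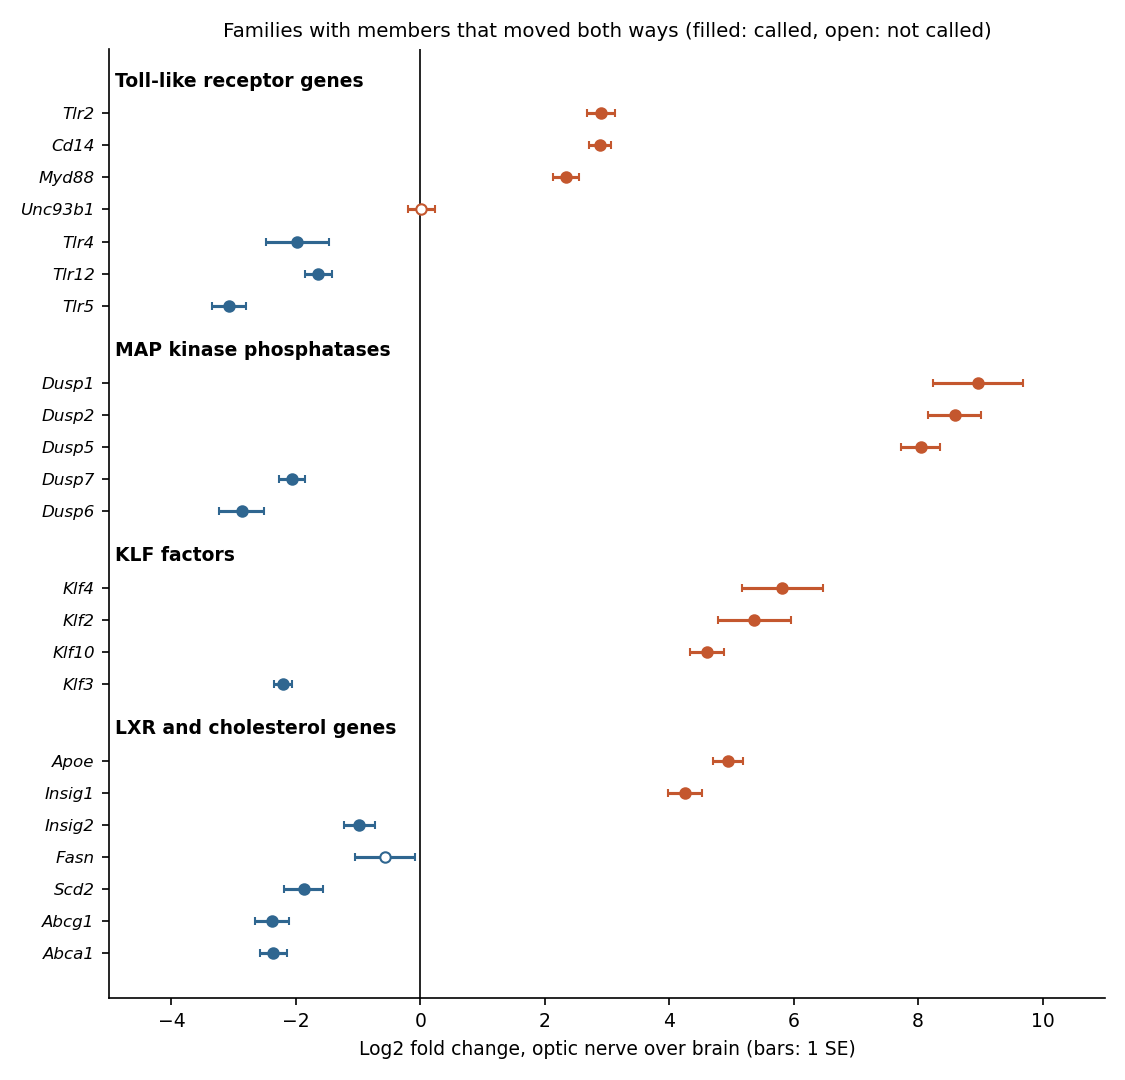
Log2 fold change (optic nerve over brain, points, with bars of 1 SE) of members of 4 families that moved both ways: Toll-like receptor genes, MAP kinase phosphatases, KLF factors, and LXR and cholesterol genes. Filled points were called and open points were not; Abca1, Abcg1, Dusp6, Klf3 and Tlr4 lie left of 0, and Insig1, Apoe, Dusp1, Klf4 and Tlr2 right of it.

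Of 16 cathepsins and cystatins 9 rose and none fell (median 0.90), with 4 falls without brain columns 1 and 2 and 1 without column 1 alone. Ctss, a cathepsin that cleaves the invariant chain, measured 26717, 24971, 28406 and 21328 CPM in optic nerve and 7272, 9126, 10942, 10692 and 10965 CPM in the brain columns. The rise was the largest of all genes by the difference of mean CPM (log2 fold change 1.37, SE 0.16, edgeR adjusted p = 7.60e-05). Cstb, a cathepsin inhibitor, rose too (394 ± 63.5 against 71.6 ± 19.2 CPM). Of 36 lysosomal hydrolases and membrane proteins 4 rose (11.1%) and 7 fell (19.4%; median -0.16) against 17.2% and 18.8% over all genes. Gla, alpha-galactosidase, rose (109 ± 36.1 against 6.71 ± 3.82 CPM; log2 fold change 4.01, SE 0.42, edgeR adjusted p = 2.97e-05), while Idua (40.7 ± 3.97 against 82.02 ± 20.9 CPM), which degrades glycosaminoglycans, fell. Without brain columns 1 and 2 the counts were 6 and 19. Of 19 V-ATPase subunits 9 rose and none fell (median 0.53; 2 fell without brain columns 1 and 2, and 1 without either of them), among the rises Atp6v1e1 (412 ± 55.1 against 166 ± 17.1 CPM).

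Of 162 genes with at least 1000 CPM in either tissue, 16 had a 95% interval of the log2 fold change within 0.5 of 0. The lysosomal and secreted proteins Cd68 (1300.4 ± 126 against 1281 ± 229 CPM), Ctsd (11589 ± 608 against 11779.8 ± 1741 CPM), Hexa (1643 ± 67.4 against 1561 ± 202 CPM) and Rnase4 (1353 ± 87.7 against 1444 ± 115 CPM) were among the 10 most alike, as were the tetraspanin Cd53 (2159 ± 248 against 2203 ± 509.7 CPM) and the actin-capping protein Capza2 (1730.3 ± 203 against 1632 ± 378 CPM). Hexa measured 1565, 1651, 1629 and 1728 CPM in optic nerve and 1253, 1455, 1719, 1671 and 1705 CPM in the brain columns, with the libraries of both tissues mixed.

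The disease-associated microglia programme, known from models of neurodegeneration, was raised in part. Of 20 genes 15 rose and none fell (median 2.24). Igf1 (11.9 ± 4.30 against 0.436 ± 0.420 CPM), Lgals3 (101 ± 21.2 against 4.19 ± 1.98 CPM), Csf1 and Apoe rose, and Trem2, Ctsd and Cd9 (1991 ± 258 against 1619 ± 217 CPM) were among the 5 not called. Of genes known to be lowered in that programme, P2ry12, Tmem119 (1849.6 ± 341 against 5095 ± 973 CPM) and Cx3cr1 (1931 ± 212 against 4997 ± 1083 CPM) fell. They were already counted among the falls of the microglial surface genes, of which 8 were not called. No list of genes lowered in the programme was counted.

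Genes of energy metabolism rose in part. Of 31 glycolysis and pentose phosphate genes 16 rose and 2 fell (median 0.71), with 1 fall when optic nerve library 2, 3 or 4 or brain column 1 was left out. Slc2a6, a hexose transporter of activated macrophages, measured 51.6, 79.3, 93.3 and 54.9 CPM in optic nerve and 1.89, 0, 0.151, 3.08 and 2.16 CPM in the brain columns. It was near 0 in brain and rose (log2 fold change 5.59, SE 0.84, edgeR adjusted p = 4.18e-04), and Ldha (805 ± 134 against 211 ± 32.8 CPM) and Slc2a1 (276 ± 46.1 against 89.8 ± 31.5 CPM) rose. Hk2, an inducible hexokinase, fell (107 ± 2.37 against 204 ± 88.6 CPM). Of 74 nuclear subunits of oxidative phosphorylation 22 rose and none fell (median 0.40), and of 76 cytosolic ribosomal protein genes 16 rose and none fell (median 0.64), where 17.2% of all genes rose.

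Those last counts rested on which brain columns were used. Without brain columns 1 and 2, 63 of the oxidative phosphorylation and 58 of the ribosomal protein genes rose, and without column 1 alone 39 and 45. Leaving out any other single library left between 8 and 21 of the former and between 8 and 13 of the latter. Atp5b, a subunit of ATP synthase, measured 1121, 1139.9, 1260.0 and 1023 CPM in optic nerve and 491, 543, 709, 671 and 674 CPM in the brain columns. Rplp0, a ribosomal stalk protein, measured 284, 324, 354 and 277 CPM in optic nerve and 159, 166, 111, 90.7 and 103 CPM in the brain columns. Brain columns 1 and 2 held the lowest brain levels of Atp5b and the highest of Rplp0. Atp5b ran against its list in this. The summed level of the oxidative phosphorylation genes was 8354 and 7364 CPM in brain columns 1 and 2. In columns 3 to 5 it was 5673 to 6126 CPM. Short transcripts as a whole leaned towards rises. Of genes other than Zfp genes in the bin with the shortest transcripts of 4 bins of equal size, 24.6% rose and 10.5% fell (median 0.26). In the bin with the longest, 9.29% rose and 28.4% fell (median -0.48). The part of length in these results was not tested. Ribosomal protein genes have many processed copies, and their counts are uncertain.

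Zinc finger genes named Zfp were the longest list. Of 296 tested, 145 (49.0%) fell and 7 (2.36%) rose, with a median of -1.39. The share that fell was larger among microglial surface genes (67.9%), purinergic genes (53.8%) and microglial transcription factors (52.6%). Zfp157 measured 5.94, 4.31, 0.960 and 3.79 CPM in optic nerve and 47.8, 26.8, 37.9, 44.1 and 37.8 CPM in the brain columns (log2 fold change -3.37, SE 0.44, edgeR adjusted p = 1.58e-04). Zfp217 measured 4.49, 1.38, 0.840 and 1.20 CPM in optic nerve and 41.7, 30.6, 8.30, 8.75 and 14.6 CPM in the brain columns (log2 fold change -3.38, SE 0.68, edgeR adjusted p = 0.00275). Zfp113 measured 2.89, 0.230, 0.960 and 4.74 CPM in optic nerve and 30.1, 30.9, 43.9, 29.7 and 28.6 CPM in the brain columns (log2 fold change -3.89, SE 0.64, edgeR adjusted p = 7.71e-04). All 3 were among the 10 largest falls of genes with at least 20 CPM and no overlap between the tissues, and less abundant genes had larger fitted falls. Brain columns 1 and 2 were far above the other brain columns for Zfp217 and not for the other two. Most of these genes encode KRAB or C2H2 DNA-binding proteins and were expressed at a low level, with a median of 8.21 CPM against 19.9 CPM over all genes. Without brain columns 1 and 2, 159 fell and 11 rose.

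The falls were set against transcript length and level, as a description with no test. All 296 had a transcript length (the longest transcript) in the GENCODE M21 annotation, with a median of 3611 bases against 3205 over all genes. In 4 bins of equal size by length, from short to long, 21.7%, 48.4%, 46.9% and 60.0% of Zfp genes fell, and of other genes 10.5%, 14.8%, 18.8% and 28.4%. In 4 such bins by mean level, from low to high, 33.7%, 57.3%, 52.0% and 47.1% of Zfp genes fell, and of other genes 10.8%, 19.8%, 21.9% and 19.8%. In each bin of either measure the share that fell was larger among the Zfp genes. The mean number of genes with 5 counts was also lower in optic nerve, but within the tissues it did not follow the Zfp genes throughout. Brain columns 1 and 2 had the most such genes (13880 and 13685). Their mean log2 CPM of the Zfp genes was the lowest of the brain columns (3.30 and 3.12). Optic nerve library 3 was the lowest of its tissue in both (12614 and 1.47). The part of the number of genes with 5 counts in the falls was not tested.

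**Figure D5:**
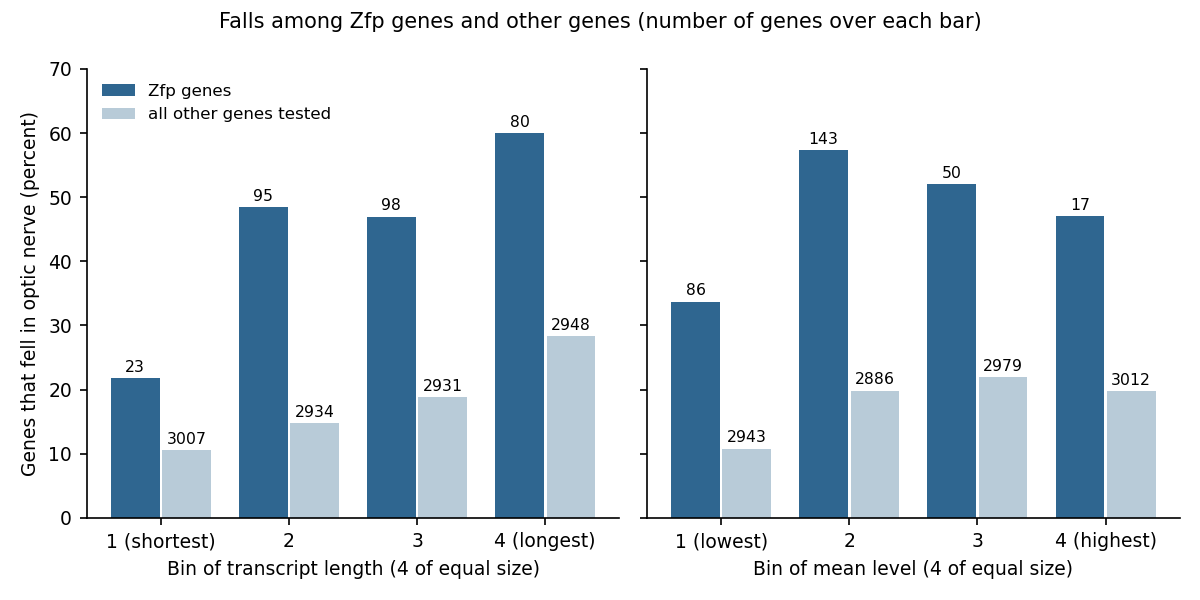
Share of genes that fell in optic nerve (percent, bars from 0) in 4 bins of equal size by transcript length (left) and by mean level (right), for Zfp genes (dark) and all other genes tested (light), with the number of genes over each bar. The share is larger for Zfp genes in every bin of both measures, from 21.7% in the shortest to 60.0% in the longest transcripts.

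Receptors for nucleotides and adenosine fell in 7 of 13 cases and rose in 5. Adora3, the adenosine A3 receptor, measured 21.3, 17.3, 21.7 and 20.8 CPM in optic nerve and 127, 128, 105, 113 and 116 CPM in the brain columns. It fell in all optic nerve libraries (log2 fold change -2.54, SE 0.16, edgeR adjusted p = 5.00e-07), and so did the ATP-gated channel P2rx1 (7.97 ± 3.90 against 23.5 ± 5.87 CPM). P2ry2, a receptor for ATP and UTP, rose (27.3 ± 9.28 against 0.698 ± 0.839 CPM; log2 fold change 5.23, SE 0.85, edgeR adjusted p = 7.41e-04), and P2rx4 rose slightly (176 ± 35.5 against 116 ± 5.64 CPM). Of 25 ion channel genes 6 fell (24%) and 3 rose (12%), near the shares over all genes (18.8% and 17.2%). The potassium channels Kcnk6 (61.6 ± 8.27 against 202 ± 63.3 CPM) and Kcnk12 (7.35 ± 2.42 against 25.8 ± 2.73 CPM) fell, and Clic4, a chloride channel protein, rose (366 ± 98.8 against 9.77 ± 6.70 CPM; log2 fold change 5.22, SE 0.59, edgeR adjusted p = 5.42e-05).

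Adhesion and guidance genes changed as well. Of 22 integrins and adhesion genes 8 rose and 7 fell. Icam1 measured 2992, 3372, 3843 and 2773 CPM in optic nerve and 155, 222, 267, 279 and 239 CPM in the brain columns. It rose (log2 fold change 3.80, SE 0.20, edgeR adjusted p = 1.25e-07) with Itga5, the fibronectin receptor chain (481 ± 48.7 against 20.02 ± 9.32 CPM), and Cd44 (46.6 ± 7.12 against 2.48 ± 2.72 CPM), while Itga9 (25.4 ± 5.02 against 106 ± 22.3 CPM), Itgb3 (27.8 ± 9.10 against 97.2 ± 18.97 CPM) and Pecam1 (7.12 ± 5.13 against 31.4 ± 12.6 CPM) fell. Of 13 semaphorins, plexins and neuropilins 6 fell and 2 rose. Sema4b measured 0.267, 2.58, 1.32 and 0.190 CPM in optic nerve and 67.5, 26.5, 23.8, 24.4 and 18.9 CPM in the brain columns, which put it among the 10 largest falls by the same rule (log2 fold change -4.87, SE 0.74, edgeR adjusted p = 4.70e-04). Sema4c fell too (16.5 ± 4.52 against 50.02 ± 20.2 CPM), and Sema6b rose (28.6 ± 9.27 against 2.11 ± 1.33 CPM). Other large falls were Tmem204 (2.93 ± 0.967 against 103 ± 24.2 CPM), Gpr165 (4.37 ± 3.03 against 147 ± 83.5 CPM), Rgs7bp (2.28 ± 0.672 against 29.4 ± 15.3 CPM) and Nhsl2 (1.999 ± 1.87 against 22.4 ± 7.73 CPM).

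Lipid mediators and growth factors rose more often than they fell. Of 17 eicosanoid and itaconate genes 10 rose and 3 fell, with 1 fall without the second optic nerve library. Ptgs2, the inducible cyclooxygenase, Sphk1, a sphingosine kinase, and Acod1, which makes itaconate, had no count in brain and measured 84.2 ± 20.01 CPM, 88.7 ± 37.1 CPM and 46.4 ± 18.2 CPM in optic nerve. The constitutive cyclooxygenase Ptgs1 fell (1138 ± 105 against 1665 ± 222 CPM; log2 fold change -0.55, SE 0.14, edgeR adjusted p = 0.0120), and missed the threshold without the second optic nerve library (edgeR adjusted p = 0.0506). Of 15 growth factors 8 rose and 2 fell, among the rises Bmp2, with no count in brain (15.4 ± 6.33 CPM), and Gdf15 (10.1 ± 6.15 against 0.237 ± 0.221 CPM), and among the falls Tgfa (34.7 ± 12.96 against 137 ± 47.6 CPM).

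Oxidative stress and iron genes rose in most cases, 10 of 17 Nrf2 response genes (2 lower, and 0 or 1 when any 1 library other than brain column 1 was left out) and 8 of 15 iron and haem genes (3 lower). Srxn1, sulfiredoxin, measured 239, 278, 229 and 183 CPM in optic nerve and 9.27, 2.60, 1.26, 3.81 and 6.16 CPM in the brain columns (log2 fold change 5.68, SE 0.48, edgeR adjusted p = 5.46e-06), and Slc7a11, the cystine transporter, rose (18.6 ± 3.07 against 1.86 ± 2.46 CPM). Gclm, a subunit of the first enzyme of glutathione synthesis, was not called (35.1 ± 6.06 against 35.1 ± 4.26 CPM). Fth1, ferritin heavy chain, rose (7396 ± 894 against 1708 ± 429 CPM) and Slc40a1, the iron exporter, fell. Slc40a1 measured 79.2, 85.4, 101 and 66.1 CPM in optic nerve and 273, 317, 557, 539.6 and 515 CPM in the brain columns (log2 fold change -2.41, SE 0.25, edgeR adjusted p = 2.93e-05).

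Of 27 cell cycle genes 14 rose and 2 fell (median 1.62). Cdkn1a, which halts the cycle, measured 593, 637, 849 and 537 CPM in optic nerve and 12.9, 18.5, 8.50, 10.05 and 12.1 CPM in the brain columns, a rise in every library (log2 fold change 5.72, SE 0.26, edgeR adjusted p = 6.70e-08). Ccnd2 (20.6 ± 3.35 against 0.117 ± 0.139 CPM) and Top2a (20.4 ± 6.10 against 1.13 ± 1.24 CPM), the latter a gene of dividing cells, rose from near 0. Without the second optic nerve library 9 cell cycle genes rose, and 1 fell when the optic nerve library 1, 2 or 4 was left out. Of 17 circadian clock genes 3 rose and 6 fell. Per1 rose (19.1 ± 4.04 against 2.80 ± 1.91 CPM), and Clock (9.97 ± 3.95 against 33.8 ± 16.5 CPM) and Tef (22.04 ± 6.82 against 54.4 ± 7.49 CPM) fell. The labels give no time of day for either tissue.

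Markers of other cells were measured beside these results. Of 13 oligodendrocyte markers 5 passed the filter and 3 rose, with a summed level of 289 to 358 CPM in optic nerve and 133 to 191 CPM in brain. Mbp, myelin basic protein, rose (116 ± 14.1 against 37.1 ± 6.14 CPM), and Cnp, also expressed at a low level outside oligodendrocytes, was not called (131 ± 30.04 against 101 ± 19.4 CPM). Of 12 astrocyte markers 6 passed the filter, 2 rose and 2 fell, with sums of 453 to 618 CPM against 488 to 631 CPM. Nearly all of the sums was Glul (446 ± 65.4 against 322 ± 47.9 CPM; edgeR adjusted p = 0.0358, and not called when 1 of 6 of the libraries was left out) and Slc1a3 (87.2 ± 17.1 against 228 ± 26.1 CPM), which microglia can also express. The sums therefore say little about the less abundant markers. The median log2 fold change of the 6 was 1.47 and the highest 5.82. Both rises were without overlap of the tissues, and the one other than Glul was at least 2-fold. Both falls were at least 2-fold, 1 of them without overlap. The part of astrocytes in the results was not tested. Of the defining factors, Olig2 had no count in any library and Olig1 had 7 counts in brain and none in optic nerve.

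Of 14 monocyte markers 6 passed the filter and 4 rose, among them Nr4a1, which is also an early gene, and Fn1 (29.4 ± 18.3 against 0.321 ± 0.718 CPM), while Ccr2 was not called (10.1 ± 4.34 against 4.34 ± 3.99 CPM) except without brain columns 1 and 2 (log2 fold change 1.47, SE 0.51, edgeR adjusted p = 0.0392) or without column 1 alone (edgeR adjusted p = 0.0465). Of 9 dendritic cell markers 6 passed, 4 rose and none fell, with a summed level of 17.9 to 68.5 CPM in optic nerve and 6.92 to 14.5 CPM in brain. The 4 were Ccr7, with no count in brain (7.87 ± 7.32 CPM in optic nerve), Cd24a (3.21 ± 1.06 against 0.0612 ± 0.137 CPM), the chemokine receptor Xcr1 (8.14 ± 7.28 against 0.434 ± 0.520 CPM) and the transcription factor Zbtb46 (13.6 ± 6.85 against 5.03 ± 2.33 CPM). Of 15 lymphoid markers 1 passed, Cd79b, which microglia also express and which fell (29.5 ± 2.41 against 75.2 ± 16.2 CPM). The list summed to 26.1 to 42.4 CPM in optic nerve and 57.5 to 91.98 CPM in brain. With no filter on low counts 4 lymphoid markers rose as well, Gzmb (1.96 ± 2.66 CPM), Nkg7 (1.10 ± 1.36 CPM), Klrb1c (0.451 ± 0.723 CPM) and Cd3g (0.421 ± 0.486 CPM), each with no count in brain, and Cd3e and Ms4a1 had no count in any library. The dendritic cell count was 2 without optic nerve library 3, where Xcr1 (edgeR adjusted p = 0.0723) and Zbtb46 (edgeR adjusted p = 0.129) were not called. Xcr1 also missed the threshold without optic nerve library 2 (edgeR adjusted p = 0.05002) and Zbtb46 without brain column 3 (edgeR adjusted p = 0.0677). The part of dendritic and lymphoid cells in the results was not tested.

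Of 10 neutrophil markers 2 passed the filter: Csf3r, which microglia also express, was not called (257 ± 70.2 against 251 ± 53.7 CPM), and Mmp9, a secreted metalloprotease also made by activated macrophages, rose (2.13 ± 0.775 against 0.0241 ± 0.0364 CPM; edgeR adjusted p = 5.59e-04). S100a8 and Ly6g had no count in any library. Of 9 Schwann cell markers 3 passed and 1 rose, with a summed level of 771 to 1008 CPM in optic nerve and 359.6 to 811 CPM in brain. The rise was that of Egr2, which is also an early response gene of macrophages (212 ± 5.43 against 2.21 ± 1.25 CPM; log2 fold change 6.54, SE 0.37, edgeR adjusted p = 2.41e-07). Pmp22, also expressed by microglia, was not called (673 ± 97.3 against 639 ± 185 CPM), nor was S100b (3.18 ± 1.15 against 0.571 ± 0.925 CPM), which rose without brain column 1 (edgeR adjusted p = 0.00146), and Prx had no count in any library. Of 14 endothelial and mural cell markers 3 passed: Flt1 rose (3.23 ± 1.19 against 0.319 ± 0.410 CPM; log2 fold change 3.28, SE 1.12, edgeR adjusted p = 0.0388), Pecam1 fell and Kdr was not called (5.93 ± 1.44 against 5.69 ± 1.97 CPM). Flt1 missed the threshold when any 1 of the 4 optic nerve libraries or brain column 2 or 3 was left out (edgeR adjusted p = 0.0502 to 0.0827). Cldn5 had no count in any library. Of 9 fibroblast markers 3 passed and 2 rose, Gsn (26.8 ± 11.6 against 4.76 ± 2.21 CPM) and Apod (1.16 ± 0.413 against 0.0684 ± 0.0939 CPM), with a summed level of 15.6 to 45.3 CPM in optic nerve and 2.95 to 8.95 CPM in brain. Of 12 neuron markers 3 passed and 2 fell, Meg3 (1.50 CPM in brain) and Slc17a7 (0.589 CPM in brain), both with no count in optic nerve. The number of falls was 4 without optic nerve library 2, 0 without brain column 1, 2 or 4 and 1 without column 3. The neuron list summed to 0.253 to 1.49 CPM in optic nerve. In brain it summed to 39.6 CPM in column 1 and 10.6 CPM in column 2. Columns 3 to 5 held 2.71 to 4.94 CPM. Mast and red cell markers summed to less than 1 CPM in every library. The part of these cells in the results was not tested.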

How the data were processed

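RNA sequencing counts of optic nerve macrophages and brain microglia were taken from 1 table of raw read counts per gene symbol. Reads were aligned with STAR to mm10, and the deposited counts come from featureCounts 1.5.1 (the submitters' processing notes). Which annotation, strand option and multi-mapping rule the authors chose is not given in the sources used, so overlapping, antisense and near-identical genes cannot be told apart. The nerve columns carry tissue initials and replicate numbers, and the brain columns were assigned by elimination. No column went unmapped (0), and the 4 sciatic nerve columns entered only an alternative. Within each tissue the libraries differed from each other by more than sampling noise.

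The counts went into edgeR 4.0.16 under R 4.3.3 (filterByExpr by tissue, TMM, quasi-likelihood F-test, Benjamini-Hochberg adjustment). Principal components used log2 CPM with a prior count of 2. A count of 0 over a tissue allows up to 0.0437 CPM for the optic nerve libraries together and 0.0285 CPM for the brain (3 counts in all), and folds against such a tissue are given as bounds. With 1 to 3 counts a ratio with its 95% Poisson interval is given. These limits cover counting error only. Alternatives were RLE and upper quartile scaling, no filter, a filter at 1 CPM in 4 libraries, all 13 libraries in 1 fit, a replicate block, DESeq2 1.42.0, each library left out in turn and, chosen after seeing the data, brain columns 1 and 2 left out.

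The comparison, the gene lists and the tests were chosen with earlier results of these data known. Named genes are the 10 largest rises and falls among called genes without overlap and with at least 20 CPM, the 8 largest rises and falls in CPM, the 3 called members of each function list with the largest rise and fall and at least 10 CPM, all tested microglial genes, the 2 most abundant members of each marker list in each tissue, the 10 most alike abundant genes, and examples not called. This names 290 genes, some of which are not reported here. Further genes of the lists of markers of other cells, those with no count included, were chosen after their values were seen.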

Additional observations from a re-analysis of the deposited data

Results flagged for a closer look

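The levels of the genes named and the technical measures were checked for a library that stood far from the rest of its tissue, meaning that its gap to the nearest other library took most of the range of the tissue. Of 500 such groups of values 55 (11%) held one. Independent values from a normal distribution would give about 1 in 20. Genes measured in the same libraries are not independent, so the 11% is not read against that share. In 6 of the 55 every other library of the tissue was at 0, which meets the criterion whatever the count. Brain column 1 was the one on the high side in 14 and on the low side in 7 of them. Values are given without explanation.

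In brain column 1 the mitochondrially encoded share of the counts stood apart, at 2.62% against 0.317% to 0.611% in the other brain columns. Brain column 1 stood apart with the highest brain level of Bambi (7.63 CPM, others 0.720 to 2.51), Clock (62.3 CPM, others 20.3 to 31.1), Cmklr1 (103 CPM, others 39.2 to 56.4) and Hk2 (361 CPM, others 156 to 188). It was also the highest for Ifitm2 (1.64 CPM, others 0.162 to 0.553), Il6 (24.04 CPM, others 7.98 to 11.5), Lilrb4a (7.30 CPM, others 2.02 to 3.37) and Maff (0.903 CPM, others 0.0810 to 0.315). It was also the highest for Mef2c (1080.0 CPM, others 672 to 755), Meg3 (5.58 CPM, others 0.225 to 0.654), S100b (2.22 CPM, others 0.0382 to 0.270) and Sema4b (67.5 CPM, others 18.9 to 26.5). It was also the highest for Slc7a11 (6.07 CPM, others 0.115 to 1.75). Brain column 1 stood apart with the lowest brain level of Cd14 (489 CPM, others 703 to 751), Cd68 (882 CPM, others 1328 to 1453), Csf2ra (22.7 CPM, others 27.9 to 29.4) and Idua (45.5 CPM, others 85.7 to 95.98). It was also the lowest for Irf9 (42.9 CPM, others 93.6 to 113), Tmem119 (3392 CPM, others 5297 to 5843) and Tmem204 (59.98 CPM, others 111 to 119).

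Brain column 2 stood apart with the highest brain level of Apoe (516 CPM, others 254 to 328), Ccl4 (85.4 CPM, others 13.05 to 33.9), Cd24a (0.306 CPM, others 0) and Cebpb (107 CPM, others 55.5 to 65.2). It was also the highest for Cish (1.45 CPM, others 0 to 0.251), F13a1 (7.92 CPM, others 0 to 0.540), Fn1 (1.61 CPM, others 0) and Fosb (0.0382 CPM, others 0). Brain column 2 stood apart with the lowest brain level of Mef2a (348 CPM, others 459 to 502). Brain column 3 stood apart with the highest brain level of Id3 (0.0503 CPM, others 0) and Zfp113 (43.9 CPM, others 28.6 to 30.9). Brain column 4 stood apart with the highest brain level of Apoc1 (0.0405 CPM, others 0). Brain column 5 stood apart with the highest brain level of Clec12a (0.585 CPM, others 0), H2-Aa (6.70 CPM, others 0 to 1.71) and Ifit3 (15.6 CPM, others 9.75 to 11.1).

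Optic nerve library 1 stood apart with the highest optic nerve level of Traf1 (23.5 CPM, others 16.97 to 17.6) and Zfp217 (4.49 CPM, others 0.840 to 1.38). Optic nerve library 1 stood apart with the lowest optic nerve level of Cd44 (35.9 CPM, others 49.1 to 50.8) and H2-Q7 (40.8 CPM, others 53.7 to 56.4). Optic nerve library 2 stood apart with the lowest optic nerve level of Serinc3 (4487 CPM, others 4958 to 5019). Optic nerve library 3 stood apart with the highest optic nerve level of C1qc (10085 CPM, others 7347 to 7543), Ccr7 (18.8 CPM, others 3.16 to 5.24), Cebpb (700.04 CPM, others 519.5 to 544) and Gpr84 (3669.8 CPM, others 2405 to 2603). It was also the highest for Irf8 (1058 CPM, others 748 to 797) and Zbtb46 (23.9 CPM, others 9.53 to 10.6). Optic nerve library 3 stood apart with the lowest optic nerve level of Cd79b (25.9 CPM, others 30.5 to 31.1) and Scd2 (20.2 CPM, others 30.03 to 31.03). Optic nerve library 4 stood apart with the highest optic nerve level of Bhlhe41 (26.99 CPM, others 16.3 to 17.7), Fos (2180.4 CPM, others 1209.7 to 1355) and Stab1 (96.3 CPM, others 50.98 to 57.2). Optic nerve library 4 stood apart with the lowest optic nerve level of Atp6v1e1 (331 CPM, others 428 to 446), Cd53 (1791 CPM, others 2241 to 2329) and Cd9 (1608 CPM, others 2089.6 to 2173).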

How the results depend on the processing

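The numbers of genes higher and lower stayed within 1.5 times the reported counts under every alternative. Leaving out each library in turn gave 1783 to 2520 higher and 1759 to 2633 lower, upper quartile scaling 1983 and 2565, no filter 2032 and 2352, all 13 libraries in the fit 2590 and 2303, DESeq2 2792 and 3205, and the fit without brain columns 1 and 2 2972 and 2928. Of 234 genes named and tested, 217 kept their direction and their side of the threshold in all alternatives, 9 lost the call in at least 1 and 8 gained it in at least 1, and no called gene reversed. Depth limits the low end: a gene at 0 in brain could be present below 0.0285 CPM, and with 4 and 5 libraries a change near the spread between them was not detectable. Whether the replicates are separate animals is not given in the sources used here.

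Counts of list members that moved by over 1.5 times were mostly small. Without brain columns 1 and 2 they were 5 higher among microglial surface genes, and as lower 3 MHC class I, 5 costimulatory, 4 cathepsin, 19 lysosomal, 2 V-ATPase, 2 complement, 4 MAP kinase feedback, 14 cytokine receptor, 1 glycolysis, 1 oxidative phosphorylation, 5 Fc receptor and 1 astrocyte gene. The same setting gave 63 oxidative phosphorylation, 58 ribosomal protein and 11 Zfp genes as higher. Upper quartile scaling gave 1 cathepsin and 4 Fc receptor genes lower and 1 astrocyte gene higher. No filter gave 14 oxidative phosphorylation genes higher and 1 Nrf2 gene lower, the filter at 1 CPM 1 KLF gene lower, all 13 libraries 10 complement genes higher, and DESeq2 1 heat shock gene lower and 5 astrocyte genes higher. Among markers of other cells, no filter gave 6 neuron markers lower and 4 lymphoid, 2 neutrophil and 0 endothelial higher, the filter at 1 CPM 1 neuron lower and 1 fibroblast higher, and all 13 libraries 1 neuron lower and 1 lymphoid, 2 neutrophil and 0 endothelial higher. DESeq2 gave 5 neuron markers lower and 2 Schwann, 2 lymphoid and 2 neutrophil higher, and the fit without brain columns 1 and 2 gave 0 neuron lower and 2 Schwann and 0 endothelial higher. The cause of these shifts was not tested.

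With each library left out in turn, the number higher ran from 1 to 2 for microglial surface genes, 8 to 39 for oxidative phosphorylation, 8 to 45 for ribosomal proteins, 9 to 16 for cell cycle genes, 1 to 3 for astrocyte, 1 to 2 for Schwann cell, 0 to 1 for endothelial and 2 to 4 for dendritic cell markers. The number lower ran from 0 to 4 for neuron markers, 0 to 2 for MHC class I and for Nrf2 genes, 0 to 1 for cathepsins, V-ATPase, SOCS, heat shock and interleukin 1 genes, 2 to 4 for MAP kinase feedback genes, 1 to 2 for KLF, glycolysis, cell cycle and astrocyte genes, 1 to 3 for other cytokines and eicosanoid genes, 4 to 11 for cytokine receptors and 2 to 5 for Fc receptors. Counts of the other lists reported stayed within 1.5 times when 1 library was left out.

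Optic nerve and brain libraries share only replicate numbers, and the numbers did not pair them: the correlations of deviations from the tissue means between same-numbered libraries were 0.0881, -0.0127, 0.0758 and -0.00722. With the replicate number as a block, only 4 libraries of each tissue informed the comparison. Brain column 5 was in the fit but had no optic nerve library of its number. The block fit gave 1783 genes higher and 1729 lower, the order opposite to that of the fit without the block. The block gave 13 oxidative phosphorylation genes, 10 ribosomal protein genes and 1 astrocyte gene higher, and 2 interleukin 1, 1 cell cycle, 0 Nrf2 and 0 SOCS genes lower. C1qb was not called under the block (log2 fold change 0.58, edgeR adjusted p = 0.0526). Not every library correlated best with its own number.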

Other observations

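SOCS proteins, which end cytokine signalling through the JAK and STAT pathway, rose in 5 of 8 cases and fell in 1. Socs3, which restrains the receptors of the interleukin 6 family, measured 898, 971, 1085 and 1017 CPM in optic nerve and 16.9, 17.6, 23.2, 25.6 and 38.6 CPM in the brain columns. Every optic nerve library was far above the brain (log2 fold change 5.34, SE 0.26, edgeR adjusted p = 7.56e-08). Cish rose as well (39.2 ± 14.1 against 0.373 ± 0.613 CPM; log2 fold change 6.56, SE 0.88, edgeR adjusted p = 1.88e-04), and Socs6 fell (28.5 ± 11.03 against 53.98 ± 10.5 CPM; edgeR adjusted p = 0.0240), with an edgeR adjusted p of 0.0543 to 0.0696 when optic nerve library 3 or 4 or brain column 4 was left out. Of the receptors for the chemoattractant chemerin, Ccrl2, which presents it without signalling, rose (589 ± 131 against 19.02 ± 4.25 CPM; log2 fold change 4.95, SE 0.23, edgeR adjusted p = 6.70e-08), and Cmklr1, a signalling receptor, fell (23.2 ± 3.99 against 56.2 ± 27.3 CPM; log2 fold change -1.27, SE 0.31, edgeR adjusted p = 0.00809).

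Further genes with large changes are given here, some of them members of lists already counted. Cxcl1, of the chemokine list and close to Cxcl2 in function, had no count in brain (100.3 ± 25.7 CPM in optic nerve, at least 3532-fold higher). Id3, of the early gene list, an inhibitor of basic helix-loop-helix factors, was read 1 time in brain (32.96 ± 3.73 CPM in optic nerve, 3454-fold higher, 95% counting interval 619 to 136487). Fam212a was among the 10 largest falls of genes with at least 20 CPM and no overlap (13.9 ± 3.10 against 177 ± 15.4 CPM; log2 fold change -3.67, SE 0.20, edgeR adjusted p = 1.50e-07). By absolute level, the actin-binding peptide gene Tmsb4x (16992 ± 2796 against 8714 ± 3073 CPM) and the cytokine Il1a of the interleukin 1 list (5745 ± 1320.1 against 134 ± 19.7 CPM) rose, and Selplg, a ligand of selectins (2747 ± 510.4 against 6078 ± 1200.0 CPM), and the membrane protein gene Serinc3 (4859 ± 249 against 8911 ± 2784 CPM) fell.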
